A study of Homo sapiens with 6 samples.

Results

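NPAS4 and 6 other genes of the bHLH-PAS transcription factor family, ARNT, ARNT2, HIF1A, EPAS1, SIM1 and AHR, were followed in EndoC-βH1 cells treated with the checkpoint kinase inhibitor AZD7762. The 7 genes were picked by name from the 60671 gene identifiers of the count files, NPAS4 because of its response in these same samples and the others because they belong to its family. Their CPM with DMSO and with AZD7762 are therefore given as a description, without a test. EndoC-βH1 is a human β cell line, made by immortalizing fetal pancreas cells, and all 6 libraries came from this one line, labelled WT. In 3 samples the cells received the vehicle DMSO and in 3 they received 1 µM AZD7762, which inhibits CHEK1 and CHEK2. The authors' kinase assay at this concentration found other kinases inhibited as well. Both groups were kept for 1 h in 0.5 mM glucose and then stimulated for 1 h, with vehicle or compound present throughout. Stimulation was at either 0.5 or 20 mM glucose, and which of these each library received is not given in the sources used here. The labels do not say that replicates were separate cultures, so p-values measure only the spread between these samples, which may be technical.

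Proteins of the bHLH-PAS family bind DNA as pairs through a basic helix-loop-helix domain, with a PAS domain holding the pair together and, in several members, sensing a signal. ARNT and ARNT2 are the general partners and are present without a stimulus. HIF1A, EPAS1, SIM1, AHR and NPAS4 each need such a partner and bring the regulation: HIF1A and EPAS1 are stabilized when oxygen is low, AHR is activated by aromatic ligands, and SIM1 is best known from the development of the hypothalamus. NPAS4 is made anew after membrane depolarization and calcium entry, in neurons and also in β cells, where depolarization is what couples glucose to insulin release.

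The libraries held between 20486391 and 29402440 counts on genes, and the detection floor of 3 counts amounted to 0.101 to 0.144 normalized CPM. Normalized CPM is the usual CPM, with each library's total first adjusted by edgeR's TMM factor. This floor and the intervals on counts cover counting error only. DMSO replicate 1 had the lowest share of mitochondrial counts, 1.57%, against 2.12% to 2.63% in the others. All 14 β cell markers examined passed the filter on low counts, among them INS, PDX1 and NKX6-1, and together they held between 8548 and 9751 CPM with DMSO and between 9296 and 9740 with AZD7762. Of 11 markers of other pancreatic or stromal cell types, together between 259.9 and 287 CPM with DMSO and between 311 and 336 with AZD7762, the δ cell hormone SST made up most. SST itself had 214 ± 12.4 CPM with DMSO and 253 ± 11.5 with AZD7762, without overlap (edgeR, unadjusted p = 0.00237, adjusted p = 0.160). None of the 6 markers tested passed, and 2 had an unadjusted p under 0.05 (edgeR), beside 1708 of all 17649 genes tested. All 6 were higher in value with AZD7762, and for 2 the groups did not overlap, beside 15.0% of all genes tested. Of the acinar markers, PRSS1 had no count in any library, while CPA1 had 21.8 ± 0.826 CPM with DMSO and 25.7 ± 1.56 with AZD7762, without overlap (edgeR, unadjusted p = 0.00925, adjusted p = 0.308). The part of these markers in the results was not tested, and in bulk RNA fewer cells of a type cannot be told apart from less RNA per cell. Between the groups, 17649 genes were tested with edgeR's quasi-likelihood test, and 0.708% passed the threshold of 0.05 after adjustment (0.357% higher and 0.351% lower with AZD7762).

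NPAS4 (ENSG00000174576) lies on chromosome 11 of GRCh37 from 66188506 to 66194178, and none of its exon length overlaps another gene. Its promoter is shown because it was the one member whose transcript moved. The stretch ends at the more upstream of its RefSeq transcription start sites and was found once on the chromosome, at chr11:66188225-66188474 of GRCh37 on the plus strand. Capitals mark the core of the cAMP response element (CRE), TGACG, on either strand.
NPAS4: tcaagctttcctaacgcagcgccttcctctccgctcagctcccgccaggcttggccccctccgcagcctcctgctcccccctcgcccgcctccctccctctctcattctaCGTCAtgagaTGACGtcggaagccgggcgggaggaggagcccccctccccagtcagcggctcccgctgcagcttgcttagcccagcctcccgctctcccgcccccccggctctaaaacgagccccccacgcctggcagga
There was 1 match on each strand, beginning at positions -140 and -130 from the start. The full palindrome TGACGTCA, which itself contains the core on each strand, was not in this window. In windows of 300 bases around the starts of 27305 genes, 28.4% of genes held the core, 7.26% held it at least 2 times and 2.25% held the palindrome. Neither ACGTG, the core bound by HIF, nor TCGTG, a core bound by NPAS4 itself, was in the NPAS4 window, and 24.9% and 19.8% of genes held them. GCGTG, the core bound by AHR, began at -14 and at 13, and 40.6% of genes held it. These are matches of letters and say nothing about which factor was bound.

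NPAS4 was close to the floor of detection with DMSO and far above it with AZD7762. With DMSO it had 16, 8 and 4 counts in replicates 1, 2 and 3, which are 0.541, 0.294 and 0.191 normalized CPM. With AZD7762 it had 453, 268 and 399 counts, or 18.0, 12.7 and 18.7 CPM. The lowest AZD7762 sample was 23.5-fold above the highest DMSO sample, and the ratio of the group means was 48.1. The fitted log2 fold change was 5.50, with a 95% interval from 4.96 to 6.05, and ranked 1 of the 17649 genes tested, a rank that its selection makes no finding. The interval takes no account of that selection, and intervals of all 7 members are given as description only. NPAS4 passed the filter on low counts only through its AZD7762 samples.

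**Figure D1:**
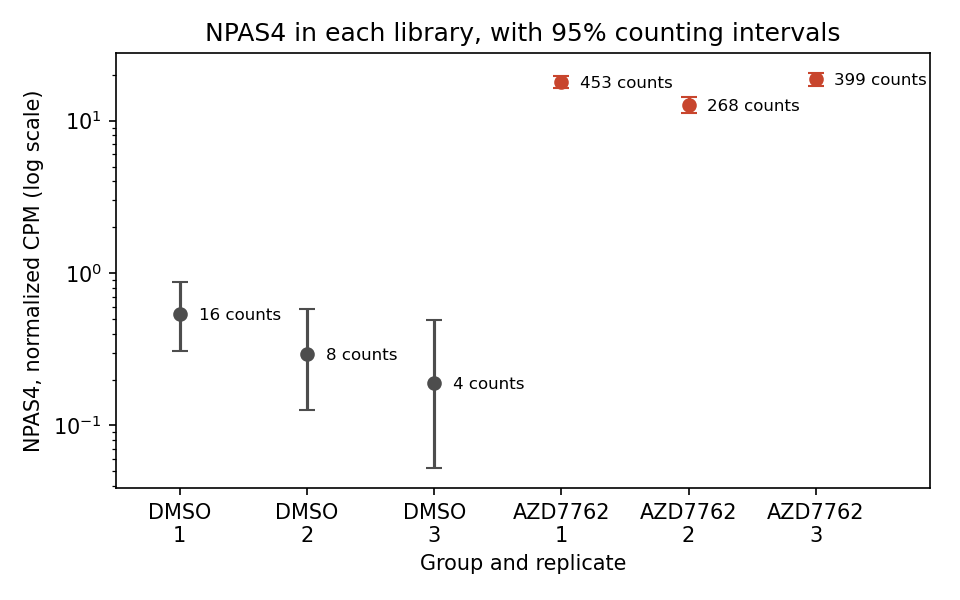
Normalized CPM of NPAS4 on a log axis in each library (3 DMSO and 3 AZD7762), with bars for exact 95% Poisson intervals of the count and the raw count beside each point. The DMSO intervals, which span 0.0522 to 0.878 CPM, overlap each other and lie far below the AZD7762 intervals, which span 11.2 to 20.6 CPM.

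The DMSO values carry large relative error. The 4 counts of DMSO replicate 3 have an exact 95% Poisson interval from 1.09 to 10.2 counts, and the 16 counts of replicate 1 one from 9.15 to 26. These intervals overlap, so the counts of NPAS4 alone leave the order of the DMSO samples unresolved at this depth. Among activity-regulated genes, EGR1 was also highest in DMSO replicate 1 (53.6, 38.0 and 33.3 CPM in replicates 1, 2 and 3). JUNB was highest in DMSO replicate 3 (27.7, 20.4 and 45.0 CPM). Whether NPAS4 differed between the DMSO samples beyond counting error was not tested. With AZD7762 the interval of replicate 2, 237 to 302 counts, is narrow, and its 12.7 CPM lay below the intervals of the other AZD7762 samples. The coefficient of variation was 52.5% with DMSO and 19.8% with AZD7762. Without DMSO replicate 1, the log2 fold change of NPAS4 was 6.01, and without any other single sample it lay between 5.27 and 5.65.

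The partners ARNT and ARNT2 had nearly equal values in the groups. ARNT (ENSG00000143437, chromosome 1 of GRCh37, 150782189 to 150849184) had 68.8, 67.1 and 66.8 CPM with DMSO and 66.8, 70.0 and 65.6 CPM with AZD7762. ARNT2 (ENSG00000172379, chromosome 15, 80696692 to 80890274), best known as the partner of SIM1 in the hypothalamus, had 261, 259.0 and 250.3 CPM with DMSO and 259, 265.5 and 272 CPM with AZD7762. For both genes the groups overlapped. The log2 fold change of ARNT was -0.0026 (95% interval -0.13 to 0.12) and that of ARNT2 was 0.05 (-0.07 to 0.17).

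The oxygen-regulated members HIF1A and EPAS1 (HIF-2α) also overlapped between the groups. HIF1A (ENSG00000100644, chromosome 14, 62162231 to 62214977) had 275.0, 284.5 and 266 CPM with DMSO and 274, 308 and 284 CPM with AZD7762. Its log2 fold change was 0.07 (-0.07 to 0.20). EPAS1 (ENSG00000116016, chromosome 2, 46520806 to 46613836) ranged from 45.2 to 46.5 CPM with DMSO and from 43.0 to 46.9 CPM with AZD7762, and its fitted change was -0.01 on the log2 scale (-0.15 to 0.13). Of the exon length of HIF1A, 8.39% overlaps the antisense genes HIF1A-AS1 and HIF1A-AS3. Those antisense genes had 3 and 6 counts in all 6 libraries together, so few reads were assigned to them.

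SIM1 and AHR complete the set. SIM1 (ENSG00000112246, chromosome 6, 100832885 to 100912797) had 302, 281 and 318 CPM with DMSO and 232, 304 and 269.5 CPM with AZD7762. AZD7762 replicates 1 and 3 lay below every DMSO sample, while AZD7762 replicate 2 lay within the DMSO range, so the groups overlapped. The log2 fold change of SIM1 was -0.16 (-0.35 to 0.03), and it was -0.08 without AZD7762 replicate 1 and -0.27 without AZD7762 replicate 2. AHR (ENSG00000106546, chromosome 7, 16955983 to 17385776) ranged from 12.5 to 13.4 CPM with DMSO and from 12.5 to 13.6 CPM with AZD7762, and its fitted change was 0.01 on the log2 scale (-0.18 to 0.20). Of its exon length, 29.5% overlaps an identifier on the same strand, which had no count in any library. How reads in the shared stretch were counted is not known, so the level of AHR is uncertain. Among the 7 genes, NPAS4 was thus the only one whose groups did not overlap, while 15.0% of all genes tested were without overlap (6.79% higher and 8.25% lower with AZD7762). Since the contrast chose NPAS4, nothing is read from this count.

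Levels were compared between genes as normalized CPM per kilobase of annotated exon. With DMSO, HIF1A stood first at 53.4 ± 1.78 CPM per kilobase (SD, n = 3), above 96.0% of the genes tested. ARNT2 (33.2 ± 0.748) and SIM1 (32.4 ± 1.97) followed, and their DMSO samples overlapped, so their order is not resolved. They exceeded 92.3% and 92.1% of genes in level. ARNT had 10.5 ± 0.172, EPAS1 6.29 ± 0.0897 and AHR 1.60 ± 0.0563 CPM per kilobase, each without overlap with its neighbours. NPAS4 was last, at 0.101 ± 0.0530 CPM per kilobase, above 2.12% of genes. With AZD7762 the level of NPAS4 was 4.85 ± 0.961 CPM per kilobase, which placed it above AHR (1.62 ± 0.0687) and below EPAS1 (6.24 ± 0.304), without overlap on either side. The samples of SIM1 (28.9 ± 3.87) did not overlap those of ARNT2 (34.3 ± 0.850) with AZD7762.

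**Figure D2:**
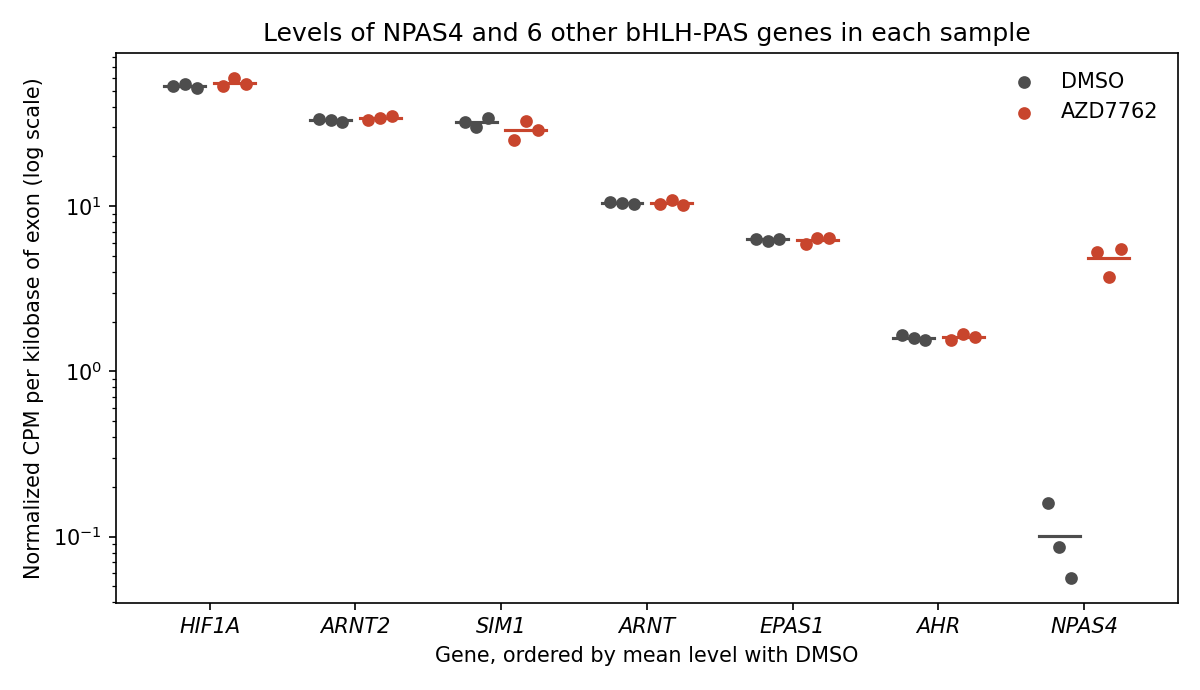
Normalized CPM per kilobase of exon, on a log axis, for the 7 genes in each of 3 DMSO and 3 AZD7762 samples, with a line at each group mean. NPAS4 moves from 0.101 to 4.85 CPM per kilobase, between AHR and EPAS1, while the points of each of the other 6 genes overlap between the groups.

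Set against its partners, NPAS4 mRNA remained the minor component. Its level per kilobase was 0.229% ± 0.117 of the summed level of ARNT and ARNT2 with DMSO and 10.8% ± 2.2 with AZD7762 (SD, n = 3). ARNT2 made up 76.0% ± 0.266 of that sum with DMSO and 76.6% ± 0.832 with AZD7762. Of the summed level of the 5 partner-seeking genes, NPAS4, HIF1A, EPAS1, SIM1 and AHR, NPAS4 held 0.107% ± 0.0561 with DMSO and 5.02% ± 1.24 with AZD7762. That sum was 2.15 ± 0.0432 times the sum of ARNT and ARNT2 with DMSO and 2.18 ± 0.120 times with AZD7762, a difference smaller than the spread between samples. HIF1A exceeded EPAS1 by 8.50 ± 0.369 times with DMSO and 8.98 ± 0.396 times with AZD7762. These are ratios of transcripts, and proteins were not measured in these files.

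The 12 further bHLH-PAS genes examined comprise NPAS1, NPAS2, NPAS3, SIM2, AHRR and HIF3A, the clock genes CLOCK, ARNTL and ARNTL2, and the coactivators NCOA1, NCOA2 and NCOA3. Of these, 11 were tested and none had an adjusted p or an unadjusted p under 0.05 in edgeR's test. None had groups that did not overlap, beside 15.0% of all genes tested. DESeq2 called none of them either. Their log2 fold changes ranged from -0.20 to 0.10, with a median of -0.0020 beside 0.0076 for all genes tested. NCOA1, the most abundant of them and a coactivator of nuclear receptors, had 129 ± 5.28 CPM with DMSO and 138 ± 12.6 with AZD7762, a log2 fold change of 0.10 (95% interval -0.05 to 0.26). ARNTL2, a partner of CLOCK, had 75.1 ± 3.38 and 72.4 ± 1.13 CPM. NCOA2 had 53.9 ± 1.36 and 55.4 ± 4.77 CPM. NPAS1, a neuronal member, was low, at 2.31 ± 0.565 and 1.98 ± 0.327 CPM, and its interval was correspondingly wide (-0.65 to 0.25). SIM2 was not tested, with a mean of 0.0122 CPM with DMSO and no count with AZD7762.

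**Figure D3:**
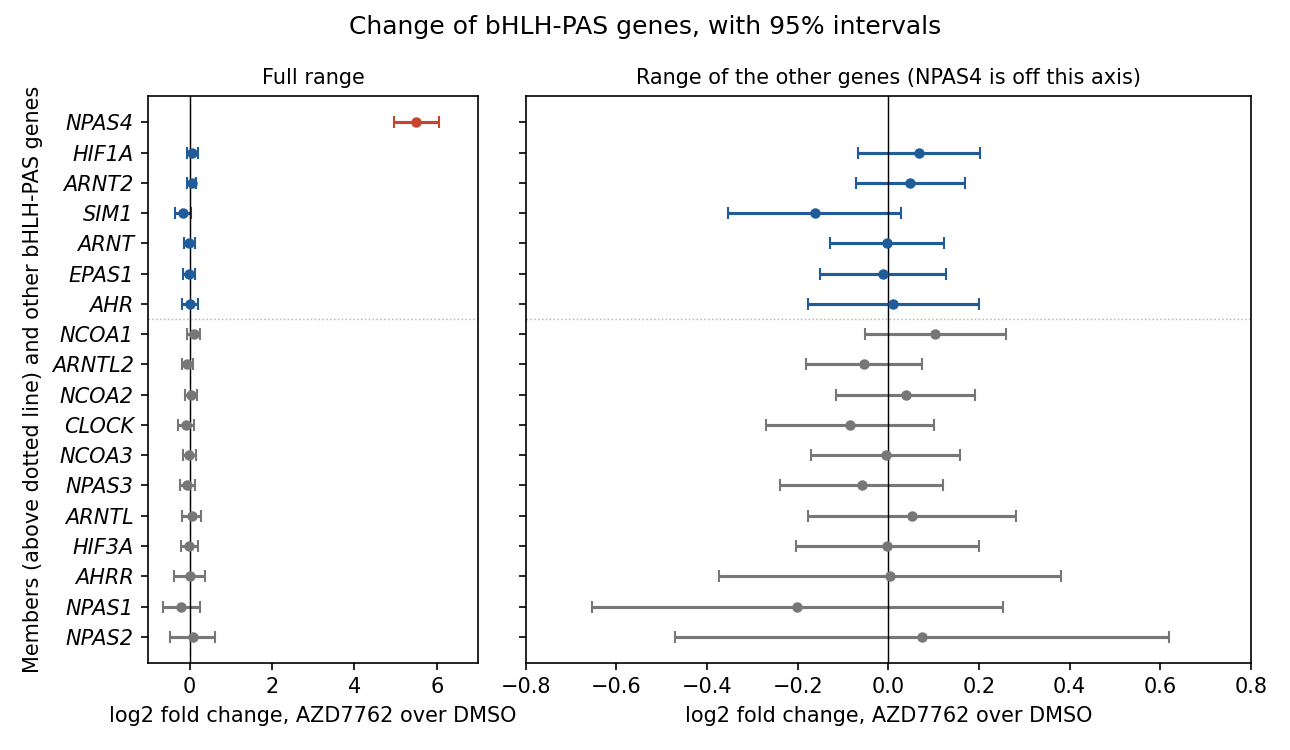
Log2 fold change between AZD7762 and DMSO with 95% intervals (points and bars) for the 7 members above the dotted line and 11 other bHLH-PAS genes below it, on the full range at left and on a narrow range at right. NPAS4 stands at 5.50, while the other 6 members lie between -0.16 and 0.07 and the 11 further genes between -0.20 and 0.10.

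Genes described as NPAS4 targets in neurons or islets were examined next, from a list of 8. This list and those of other bHLH-PAS, HIF and AHR genes were drawn up with earlier results of these data known. Calls among them are therefore no independent evidence. Of the 7 tested, 1 passed the test, RGS2, upward, beside 0.708% of all genes tested. The median log2 fold change was 0.05. RGS2 (ENSG00000116741), which speeds the switching off of G protein signals, had 12.7, 11.1 and 12.0 CPM with DMSO and 54.8, 66.0 and 59.2 CPM with AZD7762. All AZD7762 samples lay above all DMSO samples, a log2 difference of 2.33 with a standard error of 0.0884 (edgeR, adjusted p = 9.66e-09). RGS2 stayed past the threshold in every alternative fit. Its upstream stretch is shown for comparison with that of NPAS4, with the same core in capitals (chr1:192777919-192778168 of GRCh37, plus strand, from the RefSeq start, found once on the chromosome).
RGS2: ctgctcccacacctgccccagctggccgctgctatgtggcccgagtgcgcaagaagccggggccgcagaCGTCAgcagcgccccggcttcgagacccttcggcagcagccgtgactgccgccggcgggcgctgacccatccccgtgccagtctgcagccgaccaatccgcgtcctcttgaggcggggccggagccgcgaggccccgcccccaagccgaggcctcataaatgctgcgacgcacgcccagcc
The core appeared 1 time, at position -181, and 28.4% of genes held it. TCGTG, a core bound by NPAS4, was not in the RGS2 window, and 19.8% of genes held it.

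The remaining NPAS4 targets did not pass. SCG2, a granule protein, had 425 ± 25.7 CPM with DMSO and 460 ± 11.5 with AZD7762 (log2 fold change 0.11, adjusted p = 0.601, edgeR). PLK2, an activity-dependent kinase, had 260.0 ± 9.92 and 239 ± 8.44 CPM (log2 fold change -0.12, adjusted p = 0.523, edgeR). For both SCG2 and PLK2 the groups did not overlap. With RGS2, this held for 3 of the 7 targets tested, beside 15.0% of all genes tested. NPTX2, a secreted pentraxin of synapses, had 133 ± 3.86 and 135 ± 1.34 CPM. BDNF, a neurotrophin and the best known neuronal target, was near the floor, at 0.812 ± 0.298 and 1.05 ± 0.408 CPM, with an interval of the log2 fold change from -0.39 to 1.10. Of its exon length, 12.8% overlaps an antisense gene. SYT10 had no count in any library.

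Among 30 genes known to respond to HIF, 23 were tested and 1 passed, BHLHE40, downward, beside 0.708% of all genes tested. The median log2 fold change was 0.03, with 14 higher and 9 lower, and for 4 of the 23 the groups did not overlap, beside 15.0% of all genes. BHLHE40 (ENSG00000134107), a basic helix-loop-helix repressor of the clock, had 8.59, 5.80 and 8.42 CPM with DMSO and 2.74, 3.42 and 2.90 CPM with AZD7762. Every AZD7762 sample was below every DMSO sample, a log2 difference of -1.33 with a standard error of 0.171 (edgeR, adjusted p = 0.00141). It passed in all alternative fits. Of its exon length, 12.8% overlaps an antisense gene, and whether counting used the strand is unknown. Its upstream stretch is shown because it holds several copies of the HIF core ACGTG, in capitals on either strand (chr3:5020872-5021121 of GRCh37, plus strand, from the RefSeq start, found once on the chromosome).
BHLHE40: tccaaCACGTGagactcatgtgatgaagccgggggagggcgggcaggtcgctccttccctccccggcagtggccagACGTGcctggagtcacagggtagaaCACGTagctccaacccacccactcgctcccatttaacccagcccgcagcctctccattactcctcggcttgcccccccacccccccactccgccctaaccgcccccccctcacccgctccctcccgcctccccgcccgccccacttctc
Matches began at -245, -244, -174 and -149, those at -245 and -244 overlapping as CACGTG. Of all genes, 24.9% held this core in windows of 300 bases, and the share with several copies was not counted. As for NPAS4, matches of letters do not show which factor was bound.

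No other HIF target passed. In edgeR, 5 of the 23, BHLHE40 included, had an unadjusted p under 0.05, beside 1708 of all 17649 genes tested. VEGFA, the angiogenic factor, had 427, 424 and 420 CPM with DMSO and 371, 374 and 384 CPM with AZD7762. Its groups did not overlap, but the log2 fold change of -0.17 did not pass over all genes (adjusted p = 0.290, unadjusted p = 0.00815, edgeR). The glycolytic enzymes ENO1 (698 ± 48.7 and 767 ± 51.4 CPM) and PGK1 (291 ± 18.9 and 301 ± 17.7 CPM) overlapped between the groups. The largest log2 fold change upward was that of ANKRD37, 0.87, at 0.753 ± 0.175 and 1.36 ± 0.270 CPM (adjusted p = 0.252, edgeR), and 40.4% of its exon length overlaps UFSP2 on the other strand. The largest downward among those that did not pass was that of DDIT4, an inhibitor of mTOR signalling, -0.41, at 4.88 ± 1.51 and 3.59 ± 0.970 CPM. EPO had no count in any library.

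Of 12 regulators and cofactors of HIF, 11 were tested and 1 passed, CITED2, upward, beside 0.708% of all genes tested. The median log2 fold change was 0.04, and for 2 of the 11 the groups did not overlap, beside 15.0% of all genes. CITED2 (ENSG00000164442), which competes with HIF1A for the coactivators EP300 and CREBBP, had 58.5, 55.0 and 58.2 CPM with DMSO and 81.2, 74.3 and 72.0 CPM with AZD7762. The groups did not overlap, and the log2 difference was 0.41 with a standard error of 0.0650 (edgeR, adjusted p = 0.00801). It lost the call without DMSO replicate 1 (adjusted p = 0.0584), DMSO replicate 2 (0.0699) or AZD7762 replicate 1 (0.0741, all edgeR), with log2 fold changes between 0.35 and 0.41. The coactivators themselves overlapped between the groups, EP300 at 158 ± 7.73 and 165 ± 26.6 CPM and CREBBP at 123 ± 9.52 and 131 ± 14 CPM. HIF1AN, the asparagine hydroxylase that restrains HIF1A, had 129 ± 6.68 and 132 ± 5.12 CPM. ELOB, a subunit of the VHL ubiquitin ligase, had 107 ± 12.3 and 121 ± 13.4 CPM. EGLN2, a prolyl hydroxylase, had 2.59 ± 0.258 and 1.70 ± 0.316 CPM (log2 fold change -0.61, adjusted p = 0.258, edgeR), and 30.6% of its exon length is shared with genes on the same strand, so its count is uncertain although its groups did not overlap.

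None of 5 AHR targets tested, of 7 listed, passed the test in edgeR or in DESeq2. In edgeR, 2 had an unadjusted p under 0.05, beside 1708 of all 17649 genes tested. TIPARP, a feedback repressor of AHR, had 38.7, 41.4 and 36.6 CPM with DMSO and 44.4, 48.2 and 45.9 CPM with AZD7762. Its log2 fold change was 0.24 (edgeR, adjusted p = 0.217). CYP1A1, the classical AHR-induced enzyme, went the other way in value, with 30.3, 27.8 and 29.0 CPM against 25.9, 24.9 and 25.8 CPM. Its log2 fold change was -0.19 (edgeR, adjusted p = 0.407). For both genes the groups did not overlap. NQO1 (14.1 ± 1.15 and 14.3 ± 1.34 CPM) and ALDH3A1 (0.476 ± 0.163 and 0.597 ± 0.141 CPM) overlapped, and CYP1B1 had 1.46 ± 0.0612 and 1.10 ± 0.131 CPM, without overlap. For 3 of the 5 AHR targets tested the groups thus did not overlap, beside 15.0% of all genes tested. Of the chaperones that hold AHR in the cytoplasm, HSP90AA1, PTGES3 and HSP90AB1 had log2 fold changes of 0.04, 0.03 and 0.01, the sign of PTGES3 and HSP90AB1 turning with library totals only. None of these passed in edgeR, DESeq2 or at an unadjusted p under 0.05.

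**Figure D4:**
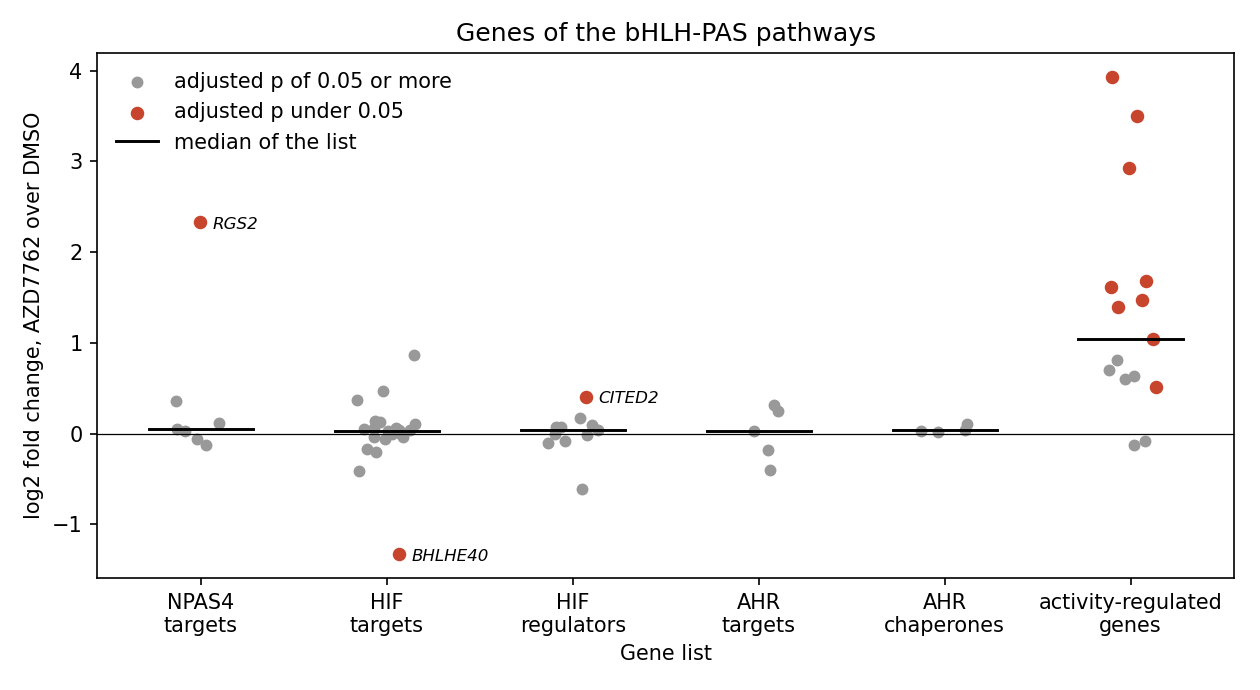
Log2 fold change between AZD7762 and DMSO (vertical axis) for each tested gene of 6 lists, with red points for an adjusted p under 0.05, grey points for the rest and a black line at each list's median. RGS2, BHLHE40 and CITED2 are the genes past the threshold in the target and regulator lists, at 2.33, -1.33 and 0.41. Of the 15 activity-regulated genes, a list known to move in these samples, 9 are past it, beside 0.708% of all genes tested. All 6 lists were chosen with earlier results of these data known.

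A list of 15 activity-regulated genes, which cells can switch on after depolarization or calcium entry, was examined beside NPAS4. All 15 were tested and 9 passed the test, all upward, beside 0.708% of all genes tested. In value 13 were higher and 2 lower with AZD7762, with a median log2 fold change of 1.04. Whether depolarization or calcium entry had a part was not tested. This list was known to move in these samples and, like the other lists, is no independent evidence. Next to the 5.50 of NPAS4, the log2 fold changes of those that passed ran from 0.52 for CREM, a CREB family factor, to 3.93 for NR4A2, an orphan nuclear receptor. EGR1, FOS, ARC, JUNB, DUSP1, NR4A1 and NR4A3 lay between. CREM lost its call in 6 of the 13 alternative fits and JUNB without DMSO replicate 1 or AZD7762 replicate 1. EGR2, at 0.81, did not pass (adjusted p = 0.220, edgeR), and PER1 had 49.0 ± 10.2 and 44.7 ± 2.09 CPM.

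The genes whose pattern was most like that of NPAS4 were sought by Pearson's r on log2 CPM over the 6 samples, among 13900 other genes whose mean was 1 or more on that scale. The samples share 2 groups, so r mostly restates the difference between them, and it is given as a description. FOS, a subunit of AP-1, came first (r = 0.997), with 12.7, 11.1 and 9.19 CPM with DMSO and 89.5, 81.1 and 82.0 CPM with AZD7762. ARHGDIB (0.995), TUBA4A (0.994), NR4A1 (0.991) and CHMP1B (0.991) followed. TUBA4A, a tubulin, had 262, 255 and 245 CPM with DMSO and 353, 356 and 348 CPM with AZD7762, a far smaller change than that of NPAS4 (log2 fold change 0.47), and 20% of its exon length overlaps STK16 and TUBA4B on the other strand. The most opposite patterns were those of CENPQ (r = -0.994), DCT (-0.993) and PHTF1 (-0.993), and none of these passed the test between the groups.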

How the data were processed

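RNA-seq of polyadenylated RNA was analysed in 6 samples, grouped by the treatment in their titles. The authors checked reads with FastQC 0.10.1, trimmed them with cutadapt 1.18 (versions from the submitters' processing notes) and, after alignment to GRCh37, used HTSeq-count per gene. The authors deposited the raw counts of each Ensembl identifier, unfiltered. The aligner, annotation release and strand setting are not given in the sources used here. The authors prepared libraries with a stranded or an unstranded kit.

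Symbols, positions and exon lengths came from GENCODE v44 lifted to GRCh37, which lists 58646 of 60671 identifiers (96.7%). ARNTL and ARNTL2 were matched through RefSeq synonyms, and PECAM1 was not matched. Counts were filtered with edgeR's filterByExpr, scaled by TMM and compared between the groups with edgeR's quasi-likelihood test (edgeR 4.0.16, R 4.3.3), with treatment as the only term, two-sided, Benjamini-Hochberg adjustment over 17649 genes and a threshold of 0.05. Intervals of log2 fold changes are 95% intervals of this fit. Standard errors are the absolute log2 fold change over the root of F. Replicates of a group differed by more than sampling noise (chi-square per gene between 4.84 and 9.59). The biological coefficient of variation was 7.15%. Promoters came from RefSeq (GRCh38.p14), which held 6 of the 7 members, and printed stretches were located in GRCh37 by exact match.

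The members and gene lists were chosen with earlier results of these data known. Genes named are the members, and of each list those called, the 3 most abundant, and the largest rise and fall among those not called, plus the 5 genes most like and 3 most unlike NPAS4. IQSEC3, MDM2 and further list genes are given only in counts, and 1 listed gene is not reported here. Alternatives were RLE or no scaling factors, leaving out mitochondrial genes, other filters, DESeq2 1.42.0, the replicate number as a block, and leaving out each sample.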

Additional observations from a re-analysis of the deposited data

How the results depend on the processing

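The 125 calls became 330 with no low-count filter and 378 with the replicate block, and from 77 (without AZD7762 replicate 1) to 168 (without DMSO replicate 3) with 1 sample left out. The block also gave 2 HIF targets called, with VEGFA added (adjusted p = 0.0469), and 1 AHR target, TIPARP (adjusted p = 0.0412, edgeR). Deviations of samples of the same number correlated at 0.0533, 0.124 and 0.210, and those of unlike number at -0.253 to 0.175. The labels name no pairs, so the main fit took none, and these values do not settle whether samples were paired. The cause of the differences in calls was not tested. Leaving out 1 sample gave 1 to 2 HIF targets called (2 without DMSO replicate 3) and 0 to 1 HIF regulators called (0 without DMSO replicate 1, DMSO replicate 2 or AZD7762 replicate 1). NPAS4 had no value with at least 10 counts in every sample, since DMSO replicates 2 and 3 had fewer. With 1 sample left out, its log2 fold change lay between 5.27 and 6.01. ARNT2 was at 0.0132 with library totals only. With the longest annotated transcript as length, the DMSO levels per kilobase were 69.6 for HIF1A, 38.4 for ARNT2, 35.6 for SIM1, 14.3 for ARNT, 8.90 for EPAS1 and 1.85 for AHR. Without mitochondrial genes in the totals, ARNT was at 10.7 and EPAS1 at 6.43. With library totals only, the median log2 fold change over all genes moved by -0.0351, and the sign turned for AHR (-0.0243), NPTX2 (-0.0127), NQO1 (-0.00914), HSP90AB1 (-0.0220) and PTGES3 (-0.00425). With 1 sample left out, log2 fold changes that turned sign ranged from -0.0361 to 0.0180 for ARNT, -0.0363 to 0.0213 for EPAS1, -0.0264 to 0.0347 for AHR, -0.0256 to 0.0908 for NCOA2, -0.00846 to 0.0345 for NPTX2, -0.0533 to 0.171 for EP300, -0.00425 to 0.0682 for HIF1AN, -0.0546 to 0.0840 for NQO1, -0.0276 to 0.0542 for HSP90AB1, -0.0128 to 0.0951 for PTGES3 and -0.276 to 0.0313 for PER1. EGR2 was called with no low-count filter and without DMSO replicate 1. Precision is limited by depth for genes with few counts, such as NPAS4 with DMSO.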
